A study of Mus musculus with 8 samples.

Results

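Izumo1r, Nt5e, Nrp1, Entpd1, Adora2a, Ada, P2rx7 and Cd200 encode surface proteins that mark anergic or regulatory CD4+ T cells and the proteins that make, remove or sense extracellular adenosine and ATP. These 8 genes were chosen by name and were found among the 39056 genes of the deposited count table, and 7 of the 8 had enough counts to be tested. They were compared between 2 groups of CD4+ T cells, ANT and SAS, each with 4 libraries. The cells were sorted by flow cytometry from spleen and lymph nodes, which had been combined, of C57BL/6J mice given retrovirally transduced bone marrow. Both groups carried the same genotype label, CD4-Cre TCRβtg Tcra-/-: a Cre transgene named for the Cd4 promoter, a TCR beta transgene, and no endogenous TCR alpha gene. The groups differed in the TCR alpha chain that the retrovirus supplied (ANT TCRα or SAS TCRα), so each group is 1 receptor and is called a clone here. The sources used here give neither the age of the mice nor how many mice stand behind a library. The spread between libraries, which the p-values measure, can therefore be partly technical.

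Anergy is a lasting state of unresponsiveness that T cells enter after recognising antigen, often self antigen, without full costimulation, and in mouse CD4+ T cells high folate receptor 4 (the product of Izumo1r) together with high CD73 (the product of Nt5e) marks it. CD39 (Entpd1) and CD73 act in sequence on the cell surface: CD39 takes ATP to AMP and CD73 takes AMP to adenosine. Adenosine signals mainly through the receptor encoded by Adora2a, which raises cyclic AMP and restrains T cell activation, and is destroyed by adenosine deaminase (Ada), while extracellular ATP itself opens the P2X7 channel (P2rx7).

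Library totals ran from 27600959 to 31810799 counts. Levels are in CPM, counts scaled to 1000000 of a library size scaled by TMM (trimmed mean of M values, edgeR's default normalization). Differences are log2 fold changes, SAS minus ANT, with a standard error (SE), and a gene is called at an adjusted p under 0.05 in edgeR's quasi-likelihood test over 12619 genes. The lymphocyte genes Cd4 (936 ± 59.8 CPM in ANT, 907 ± 66.6 in SAS, SD, n = 4) and Cd3e (515 ± 45.3 and 507 ± 18.6 CPM) stood at similar levels in both clones. Most marker genes of other cells were scarce, but not all. Apart from the immunoglobulin constant genes Ighm and Ighd, the summed B cell markers were 1.35 to 3.65 CPM in ANT and 1.38 to 3.47 CPM in SAS. Ighm alone was at 665 ± 21.4 CPM in ANT against 150 ± 27.1 in SAS. The 10 myeloid markers summed to 4.85 to 7.07 CPM in ANT and 4.76 to 10.2 CPM in SAS, and the 8 dendritic cell markers to at most 1.26 CPM in any library. The CD8 genes Cd8a and Cd8b1 summed to 14.1 to 66.8 CPM in ANT and 1.99 to 4.49 CPM in SAS. Most of this sum was Cd8b1 (33.6 ± 21.1 CPM in ANT against 2.42 ± 0.725 in SAS). Cd8a was at 2.56 ± 1.91 against 0.916 ± 0.531 CPM and was not called (adjusted p 0.0919, edgeR). The 6 NK cell markers summed to 33.6 to 41.8 CPM in ANT and 3.44 to 5.96 CPM in SAS. Nearly all of it in ANT was Prf1 (35.8 ± 4.03 CPM), and Ncr1, Klra8 and Klre1 were at 0 in every library. Gzma was also higher in ANT (2.05 ± 0.205 against 0.329 ± 0.209 CPM), while Klrb1c was higher in SAS (0.792 ± 0.193 against 0.0345 ± 0.0488 CPM). The part of these cells in the results was not tested. The second principal component (10.6% of the variance) separated ANT replicates 1 and 3, together with SAS replicate 1, from ANT replicates 4 and 5, together with SAS replicate 2.

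Of the 8 genes, 6 were higher in SAS (Nt5e, Izumo1r, Cd200, Nrp1, Adora2a and P2rx7), Ada did not pass the test, and Entpd1 had too few counts to be tested. Over all tested genes 19.8% were called higher in SAS and 17.7% higher in ANT. In either direction 37.4% were called. The SAS-high share of these calls was 52.8% under TMM and 64.8% when only library totals were used. The same 6 genes were also those for which the 4 SAS libraries all lay above the 4 ANT libraries, against 20.5% of tested genes. In bulk RNA, a larger share of cells that express a gene and more RNA of it per cell cannot be told apart.

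**Figure D1:**
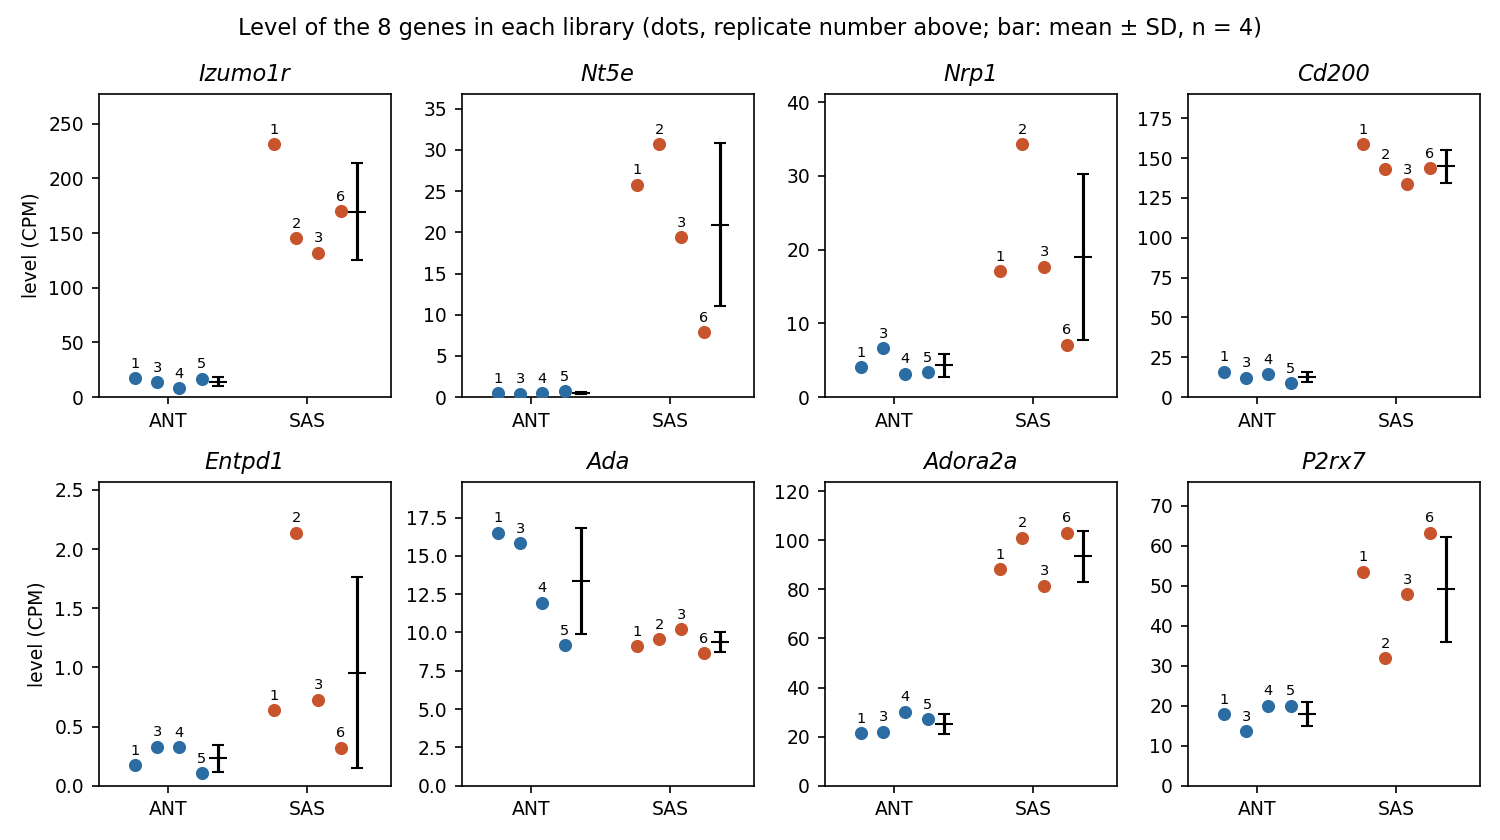
Level of each of the 8 genes in CPM (vertical axes, each starting at 0) in the 4 ANT and 4 SAS libraries. Each dot is a library with its replicate number above it, and the bar is the mean ± SD of 4 libraries; for Izumo1r, Nt5e, Nrp1, Cd200, Adora2a and P2rx7 every SAS dot lies above every ANT dot, while for Entpd1 and Ada the clones overlap.

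Where members move together, their promoters can be set side by side. RefSeq's promoter table (build GRCm38.p6, 250 bases before and 50 after each transcript start) held 9 windows for 7 of the 8 genes, all but Adora2a. Motifs of 7 letters were searched on both strands: TGAGTCA (AP-1), AAGGTCA (a nuclear receptor half-site), GTGGGCG (EGR factors) and TGACGTC (CREB). They stood in 5.20%, 4.72%, 7.97% and 3.21% of all 32851 windows. Matches before the RefSeq start were found for 3 members, and these stretches are shown because they are the only matches upstream of that start. That of Nrp1 lies before a RefSeq start at 128359073 but inside the gene span given below, which begins at 128358604. It overlaps no annotated exon. Capitals mark the match and the strand given is that of the gene.
P2rx7, chr5:122643677-122643736, plus strand, AP-1 motif from base -249: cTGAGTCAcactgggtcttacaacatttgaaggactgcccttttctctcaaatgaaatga
Nrp1, chr8:128358823-128358882, plus strand, half-site on the opposite strand from base -246: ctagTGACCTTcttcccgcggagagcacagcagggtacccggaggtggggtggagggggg
Ada, chr2:163750240-163750299, minus strand, EGR motif from base -8: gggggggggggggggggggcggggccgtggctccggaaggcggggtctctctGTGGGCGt
Ada had a second EGR match just after its start, and the windows of Izumo1r, Nt5e, Cd200 and Entpd1 held none of these letters. The windows also differed in base composition. The Nt5e window was 71.0% G and C with 23 CpG dinucleotides, and that of Izumo1r 52.3% with 3, against medians of 52.7% and 7 over all windows. A match is a description of the sequence and not a bound site.

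Among the surface markers, Izumo1r had the highest level. Izumo1r (ENSMUSG00000031933.17, chromosome 9, 14885814 to 14903949, minus strand, mm10) encodes folate receptor 4, also called Juno, a GPI-anchored member of the folate receptor family. In ANT replicates 1, 3, 4 and 5 it stood at 17.2, 13.7, 8.15 and 17.03 CPM, and in SAS replicates 1, 2, 3 and 6 at 231, 145, 132 and 169.7 CPM. The lowest SAS library was far above the highest ANT library, and ANT replicate 4 was the lowest of its clone. The log2 fold change was 3.60 (SE 0.26, adjusted p 4.11e-06, edgeR). The other folate receptors were nearly silent, with no count for Folr1 in any library and 1 count for Folr2, which allows no statement on a difference. The reduced folate carrier Slc19a1 was higher in SAS, at 48.2 ± 4.08 against 13.5 ± 2.47 CPM (a difference of 1.84 on the log2 scale, adjusted p 5.79e-06). So was the proton-coupled carrier Slc46a1 at a low level, 0.837 ± 0.112 against 0.362 ± 0.122 CPM. All 3 tested genes of this list of 5, Izumo1r itself included, were thus higher in SAS, against 19.8% of all tested genes. Their median log2 fold change was 1.84 against 0.00 over all tested genes.

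Nt5e showed the largest ratio of the 8 genes. Nt5e (ENSMUSG00000032420.8, chromosome 9, 88327197 to 88372092, plus strand) encodes CD73, the ectoenzyme that forms adenosine from AMP. It stood at 0.448, 0.441, 0.505 and 0.758 CPM in ANT replicates 1, 3, 4 and 5, from 12 to 22 counts a library. In SAS replicates 1, 2, 3 and 6 it stood at 25.8, 30.7, 19.4 and 7.90 CPM. SAS replicate 6 was well below the other 3 and still above every ANT library. The log2 fold change was 5.27 (SE 0.44, adjusted p 9.25e-06, edgeR), a fold of 38.5, which placed Nt5e 128th of 12619 genes in order of log2 fold change.

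Nrp1 rose by less and varied most among the called members. Nrp1 (ENSMUSG00000025810.9, chromosome 8, 128358604 to 128503363, plus strand) encodes neuropilin-1, a co-receptor for semaphorins and VEGF that is also a marker of thymus-derived regulatory T cells. It stood at 4.04, 6.62, 3.21 and 3.38 CPM in ANT and at 17.06, 34.3, 17.7 and 7.13 CPM in SAS, in the same replicate order. The lowest SAS library, replicate 6, was close to the highest ANT library, replicate 3, at 7.13 against 6.62 CPM. The log2 fold change was 2.14 (SE 0.42, adjusted p 0.00272, edgeR), 1.70 without SAS replicate 2 (adjusted p 0.00506). Without ANT replicates 4 and 5 the call was lost (1.81, adjusted p 0.0811). The coefficient of variation in SAS was 59.2% for Nrp1 and 47.0% for Nt5e, against 7.17% for Cd200 and 11.1% for Adora2a. For both Nrp1 and Nt5e replicate 2 was the highest SAS library and replicate 6 the lowest.

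In a list of 17 genes of the neuropilin system that holds Nrp1 itself, 11 were tested. Of these, 4 were higher in SAS and 2 in ANT, against 19.8% and 17.7% of all tested genes. The median log2 fold change was 0.29. Nrp2, the paralog, had 7 counts in ANT and 429 in SAS (3.47 ± 1.34 CPM in SAS). Plxna3, a plexin that forms semaphorin receptors with neuropilins, was at 28.4 ± 2.59 against 7.80 ± 1.69 CPM (1.86 on the log2 scale, adjusted p 1.40e-05). Tgfb1, whose latent form binds neuropilin-1, was higher in SAS by 1.26 on the log2 scale (adjusted p 0.00989), and 0.81 without ANT replicates 1 and 3 (adjusted p 0.0732). The 2 genes higher in ANT were the class 4 semaphorins Sema4b and Sema4d. Sema4b (log2 fold change −0.74, adjusted p 0.0187) lost its call without SAS replicate 1 or 6, at adjusted p 0.0507 and 0.0504. Sema4d (−0.61, adjusted p 0.0402) lost it without ANT replicate 4 or 5 or any 1 SAS library, at adjusted p of 0.0501 to 0.101.

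Cd200 was the most even of the surface markers. Cd200 (ENSMUSG00000022661.14, chromosome 16, 45382135 to 45409053, minus strand) encodes a membrane glycoprotein that restrains myeloid cells through the CD200 receptor. In ANT replicates 1, 3, 4 and 5 it stood at 15.97, 12.1, 14.4 and 8.93 CPM, and in SAS replicates 1, 2, 3 and 6 at 159, 143, 134 and 144 CPM. All 4 SAS libraries lay between 134 and 159 CPM, far above the highest ANT library. SAS exceeded ANT by 3.49 on the log2 scale (SE 0.18, adjusted p 3.54e-07, edgeR). B cells also express Cd200. The whole list of 10 B cell markers summed to 644 to 697 CPM in ANT and 127 to 188 CPM in SAS, nearly all of it Ighm, and 2 of its 4 tested genes, Ighm (−2.15) and Ighd (−0.68, adjusted p 0.0324), were higher in ANT and 0 in SAS. The part of B cells in the Cd200 level was not tested. On the receptor side, Cd200r1, the inhibitory receptor, was at 35.5 ± 4.71 CPM in SAS against 22.5 ± 2.03 in ANT (log2 fold change 0.66, adjusted p 0.00215). Its relatives Cd200r4 and Cd200r3 were higher in ANT, at 10.9 ± 0.954 against 6.81 ± 0.415 CPM and at 2.35 ± 0.233 against 0.167 ± 0.151 CPM. Rasa1, a Ras GTPase-activating protein recruited below the receptor, was higher in SAS (log2 fold change 0.82, adjusted p 0.00147). In this list of 8 genes, which holds Cd200 itself, 7 were tested. Of these, 3 were higher in SAS and 2 in ANT, against 19.8% and 17.7% of all tested genes, with a median of 0.18.

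Izumo1r, Nt5e and Nrp1 are also expressed by regulatory T cells. Foxp3, the factor that defines that lineage, was at 2.50, 1.12, 1.28 and 0.899 CPM in SAS replicates 1, 2, 3 and 6 and at 0.585 ± 0.106 CPM in ANT (log2 fold change 1.31, adjusted p 0.0165, edgeR). Foxp3 lost its call without ANT replicates 4 and 5 (adjusted p 0.0586) or 1 and 3 (0.0734). SAS replicate 1 was the highest SAS library for Foxp3 and Izumo1r, but not for Nt5e or Nrp1. The summed regulatory T cell list of 15 genes ran from 85.1 to 116 CPM in ANT and from 1233 to 1507 CPM in SAS, most of it from Ikzf2 (976 ± 93.0 CPM in SAS), which encodes Helios. Of its 13 tested genes 11 were higher in SAS and 0 in ANT, against 19.8% and 17.7% of all tested genes, with a median of 2.93. Among them were Tigit, an inhibitory receptor (log2 fold change 4.99), Gpr83, a G protein-coupled receptor (4.23, and 4.84 without ANT replicate 5), and Il2ra (3.18). The part of such cells in the levels of the 8 genes was not tested. In a list of 24 anergy genes that holds Izumo1r, Nt5e and Nrp1 themselves, 18 of 23 tested genes were higher in SAS and 2 in ANT. The shares over all tested genes were again 19.8% and 17.7%, and the median of the list was 2.37. Lag3 (8.18), Tnfrsf9 (7.97), Pdcd1 (6.49) and Nr4a3 (5.66) had the largest differences, all above that of Nt5e. The lipid kinase Dgka, which damps diacylglycerol signals, was among those higher in ANT (−0.90, adjusted p 0.000463). The other was the deacetylase Sirt1 (−0.41, adjusted p 0.0287), which was not called without ANT replicate 4 or 5 or SAS replicate 1, 3 or 6, at adjusted p of 0.0554 to 0.0764.

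**Figure D2:**
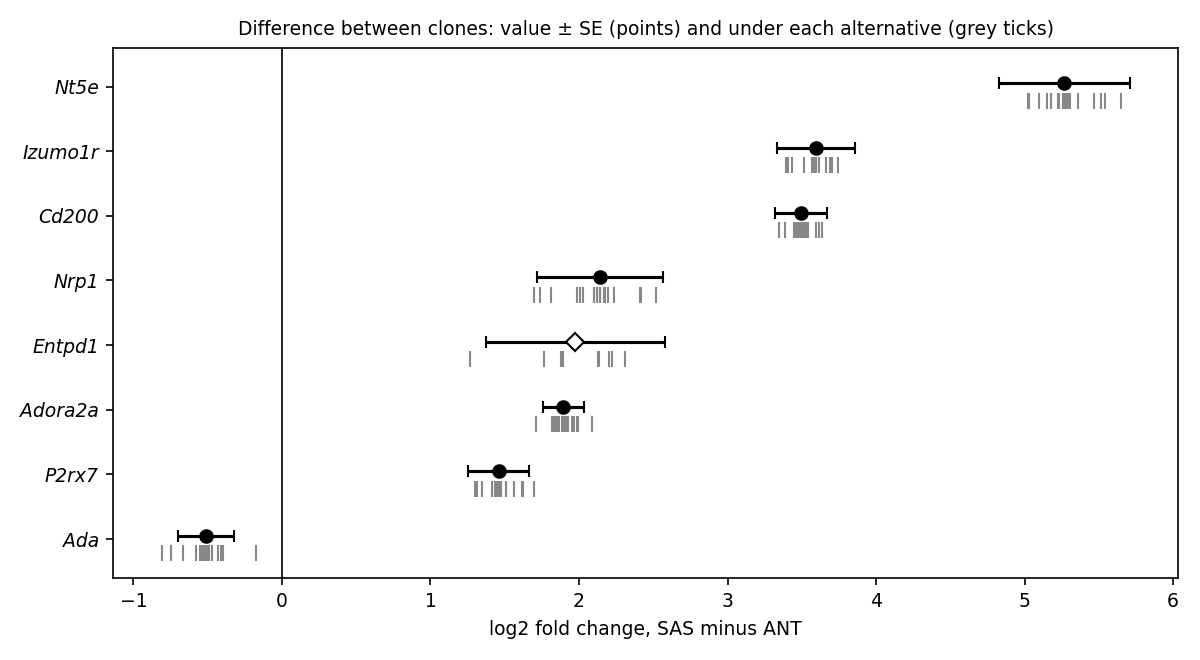
Log2 fold change, SAS minus ANT (horizontal axis), for each of the 8 genes: filled points are the edgeR values with their SE, grey ticks the values under each alternative analysis, and the open diamond for Entpd1 is the fit without a low-count filter. Nt5e lies at 5.27, Izumo1r at 3.60 and Cd200 at 3.49, and the ticks for Ada run from −0.81 to −0.17.

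The enzymes of the adenosine pathway did not move as 1 group. Entpd1 (ENSMUSG00000048120.16, chromosome 19, 40612366 to 40741602, plus strand), the gene of CD39, had 5, 9, 9 and 3 counts in ANT replicates 1, 3, 4 and 5. It had 21, 61, 21 and 10 counts in SAS replicates 1, 2, 3 and 6, or 0.640, 2.14, 0.725 and 0.321 CPM. SAS replicate 2 held most of the SAS counts, and SAS replicate 6 lay below ANT replicates 3 and 4. Without a low-count filter the log2 fold change was 1.97 (SE 0.60, adjusted p 0.0333, edgeR). With 1 library left out, Entpd1 passed the default filter in 7 of 8 fits, which thus differ from that fit in the filter too. It was called higher in SAS in 4 of them, without ANT replicate 3 or 4 or SAS replicate 3 or 6 (log2 fold changes of 2.13 to 2.31, adjusted p 0.0125 to 0.0404). It was not called without SAS replicate 2 (1.26, adjusted p 0.0638) or ANT replicate 1 or 5 (0.0590 and 0.0571). SAS replicate 2 also had the highest sum of the 10 myeloid markers, 10.2 CPM against 4.76 to 7.07 CPM in the other 7 libraries. Its markers did not all move that way: Csf1r was at 2.17 CPM there against at most 0.152 CPM elsewhere, Cd68 at 3.02 CPM was below every ANT library, and Cd14 and Fcgr1 were at 0. The part of other cells in its Entpd1 counts was not tested. Other genes of the CD39 family gave less, with no count for Entpd2 and at most 7 counts per clone for Entpd3.

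Of 11 ectonucleotidase genes 5 were tested and all of these were called, against 37.4% of all tested genes. Nt5e, Cd38 and Alpl were higher in SAS, and Acpp and Enpp1 were higher in ANT. Cd38, an enzyme that consumes extracellular NAD, had 10 counts in all of ANT and 1428 in SAS, where it stood at 11.7 ± 1.02 CPM. Its fitted log2 fold change of 6.98 moved with those few ANT counts, to 7.83 without ANT replicate 4, 11.43 without ANT replicates 4 and 5 and 6.02 without ANT replicates 1 and 3. Alpl, tissue-nonspecific alkaline phosphatase, had 2 counts in ANT, both in replicate 5, and 246 in SAS. Acpp, prostatic acid phosphatase, which like CD73 can take AMP to adenosine, was at 5.53 ± 1.63 CPM in ANT against 1.04 ± 0.217 in SAS (log2 fold change −2.41, adjusted p 7.18e-05). Enpp1, which splits ATP to AMP and pyrophosphate, was at 14.4 ± 1.72 against 8.62 ± 2.05 CPM (−0.74, adjusted p 0.00932). All 4 ANT libraries lay above all 4 SAS libraries for Acpp and for Enpp1, against 17.7% of tested genes.

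Ada (ENSMUSG00000017697.3, chromosome 2, 163726584 to 163750239, minus strand) encodes adenosine deaminase, which turns adenosine into inosine. In ANT replicates 1, 3, 4 and 5 it stood at 16.5, 15.8, 11.9 and 9.17 CPM, and in SAS replicates 1, 2, 3 and 6 at 9.11, 9.57, 10.2 and 8.64 CPM. ANT replicate 5 lay among the SAS libraries, and the 4 SAS libraries were close together. The log2 fold change of −0.51 (SE 0.19) did not pass the test (adjusted p 0.0540, edgeR), so the data leave a difference of this size undecided. ANT replicates 1 and 3 were above replicates 4 and 5, the same split as on the second principal component. Without replicates 4 and 5 the difference came to −0.81 (adjusted p 0.00107), and when replicates 1 and 3 were left out to −0.17 (adjusted p 0.442). It was also called by DESeq2 (adjusted p 0.0293) and without ANT replicate 5 alone (−0.67, adjusted p 0.00832).

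In the list of adenosine metabolism and transport, to which Ada itself belongs, 6 of 9 tested genes were called higher in SAS and 0 in ANT. The shares over all tested genes were 19.8% and 17.7%, and the median of the list was 0.79. Ada, Adal and Slc28a2 were the 3 that were not called. Slc29a1, the main equilibrative nucleoside transporter of the plasma membrane, was at 145 ± 16.8 CPM in SAS against 27.2 ± 4.89 in ANT (2.42 on the log2 scale, SE 0.15, adjusted p 1.45e-06). Its relatives Slc29a2 (1.21, adjusted p 0.000569) and Slc29a3 (1.12, adjusted p 1.26e-05), the latter of lysosomes and mitochondria, were also higher. Slc28a2, a concentrative transporter, stood at 257 ± 25.1 against 265 ± 42.7 CPM and was not called (log2 fold change −0.04, SE 0.13, adjusted p 0.818, with a sign that turned under other settings). Adk, adenosine kinase, which returns adenosine to AMP inside the cell, was at 75.0 ± 12.8 CPM in SAS against 27.6 ± 6.21 in ANT (1.44 on the log2 scale, SE 0.18, adjusted p 0.000147). Adk and Ada, the enzymes of the competing routes of adenosine removal, thus had log2 fold changes of opposite sign, of which only that of Adk passed the test. Dpp4, which encodes CD26, was at 160 ± 18.4 CPM in SAS against 93.0 ± 26.7 in ANT (0.79, adjusted p 0.00848). Ahcy, which forms adenosine from S-adenosylhomocysteine, was higher by 0.40 on the log2 scale (adjusted p 0.0262). Ahcy was not called without ANT replicate 3 or SAS replicate 1, 3 or 6, at adjusted p of 0.0558 to 0.0762. Adal, an adenosine deaminase-like enzyme, was at 14.6 ± 2.46 CPM in SAS against 18.1 ± 3.55 in ANT and was not called (adjusted p 0.183). Of 7 cytosolic or mitochondrial nucleotidase genes 5 were tested and 4 were called, against 37.4% of all tested genes. The differences lay between −0.51 and 0.49. Nt5c2 (0.49), Nt5c3b (0.38) and Nt5m (0.40) were higher in SAS and Nt5c3 (−0.51) in ANT. Nt5m was not called without ANT replicate 1, 3 or 4 or SAS replicate 2 or 3, at adjusted p of 0.0511 to 0.0695.

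**Figure D3:**
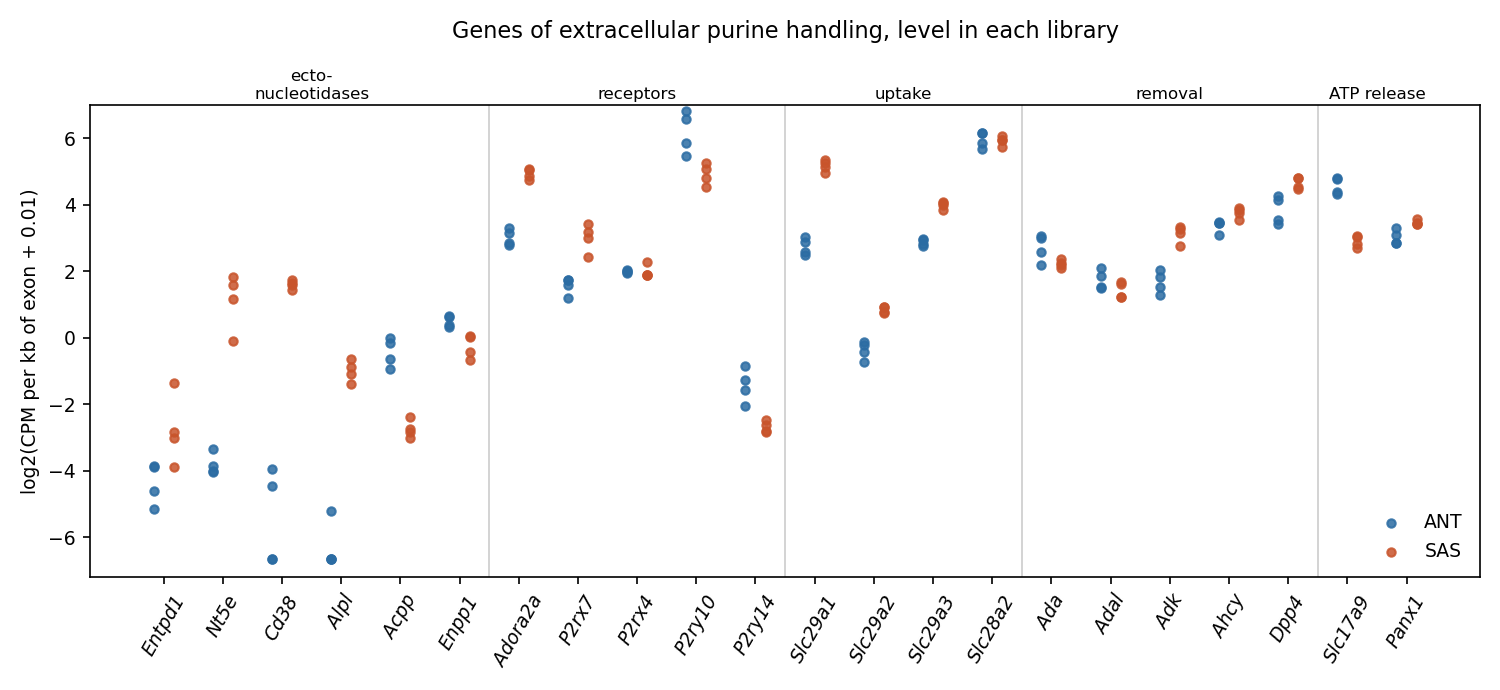
Level of 22 genes of purine handling or with P2 receptor symbols in each library, for ANT (blue) and SAS (orange). Some of them act inside the cell. The vertical axis is log2 of CPM per kilobase of exon plus 0.01, so that a gene with no count sits at the bottom. Nt5e, Cd38 and Alpl are separated most, Slc29a1 and Adk are higher in SAS, and Slc17a9, Acpp and P2ry10 are higher in ANT.

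Adora2a (ENSMUSG00000020178.6, chromosome 10, 75316877 to 75334784, plus strand) encodes the adenosine receptor that couples to adenylyl cyclase through a stimulatory G protein. In ANT replicates 1, 3, 4 and 5 it stood at 21.3, 22.1, 30.2 and 27.03 CPM, and in SAS replicates 1, 2, 3 and 6 at 88.3, 101, 81.6 and 103 CPM. The clones were well apart and the libraries of each were close together. SAS exceeded ANT by 1.89 on the log2 scale (SE 0.14, adjusted p 4.17e-06, edgeR), a fold of 3.72. Adora2a supplied 99.6% to 99.8% of the counts of the 4 adenosine receptor genes in every ANT library and 97.7% to 99.8% in SAS. The lowest share was that of SAS replicate 2, where Adora1 was at 2.21 CPM, against at most 0.193 CPM in the other 7 libraries. Adora2b had no count in any library, and Adora3 had 3 counts in ANT and 23 in SAS.

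Below the receptor, 22 genes of cyclic AMP signalling were measured. In each direction 5 of them were called, against 19.8% of all tested genes for SAS and 17.7% for ANT. The other 12 were left uncalled, and the median of the list was −0.01. The phosphodiesterases, which destroy cyclic AMP, differed in direction. Pde3b (−1.60, adjusted p 0.00111), Pde4b (−1.26, adjusted p 2.17e-05) and Pde4d (−0.88, adjusted p 0.00169) were higher in ANT. Pde4b was at 185 ± 27.3 CPM in ANT against 77.2 ± 4.38 in SAS. Pde4a was higher in SAS but much scarcer, at 5.37 ± 0.723 against 0.309 ± 0.168 CPM (4.10, adjusted p 2.06e-05). Pde7a was called higher in SAS (0.74, adjusted p 0.0418), but not without ANT replicate 1 or 3 or any 1 SAS library, at adjusted p of 0.0563 to 0.0899. The remaining calls were also near the threshold: Prkar2b (0.75), Prkar1b (2.66) and Crem (0.54) in SAS, Crtc3 (−0.76) and Prkacb (−0.45) in ANT. Prkar1b rested on SAS replicate 2, at 7.50 CPM where the other 3 SAS libraries had 0.487 to 1.14 CPM, and was not called without it (1.07, adjusted p 0.107) or without any 1 ANT library (adjusted p 0.0523 to 0.0830). Prkar2b was not called without any 1 ANT library or SAS replicate 2 or 3 (0.0520 to 0.0808). Crem was not called without ANT replicate 1, 4 or 5 or SAS replicate 1, 3 or 6 (0.0722 to 0.134), Crtc3 not without ANT replicate 4 or 5 or SAS replicate 1, 3 or 6 (0.0517 to 0.0849), and Prkacb not without SAS replicate 6 (0.0511). The same clone that carried more Adora2a transcripts thus carried fewer of Pde3b, Pde4b and Pde4d, the most abundant phosphodiesterases of the list in ANT together with Pde7a.

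P2rx7 (ENSMUSG00000029468.17, chromosome 5, 122643911 to 122691432, plus strand) encodes the P2X7 channel, which extracellular ATP opens and whose activation can kill T cells. In ANT replicates 1, 3, 4 and 5 it stood at 17.9, 13.6, 20.01 and 20.03 CPM, and in SAS replicates 1, 2, 3 and 6 at 53.5, 31.9, 47.9 and 63.3 CPM. SAS replicate 6, the lowest SAS library for Nt5e and Nrp1, was the highest for P2rx7, and SAS replicate 2, the highest for those genes, was the lowest. SAS exceeded ANT by 1.46 on the log2 scale (SE 0.21, adjusted p 0.000335, edgeR), a fold of 2.75. Of 15 genes with P2 receptor symbols 5 were tested. Of these, 1 (P2rx7) was higher in SAS and 2 in ANT, against 19.8% and 17.7% of all tested genes. P2rx4, a related ATP-gated channel, was at 27.8 ± 3.99 CPM in SAS against 27.9 ± 0.578 in ANT (a difference of 0.00 on the log2 scale, SE 0.12, adjusted p 0.979, with either sign under other settings). P2ry10, a G protein-coupled receptor of lymphocytes, was at 91.9 ± 19.4 CPM in SAS against 231 ± 94.9 in ANT (−1.33, adjusted p 0.00396), and at −0.73 without ANT replicates 1 and 3. P2ry14, the UDP-sugar receptor, was lower too, at 1.62 ± 0.210 against 4.17 ± 1.47 CPM. Art2b, an ectoenzyme that can open P2X7 by ADP-ribosylating it, was at 38.5 ± 5.25 against 31.9 ± 10.2 CPM and was not called (adjusted p 0.350). On the side of ATP release, Slc17a9, the vesicular nucleotide transporter that loads ATP for secretion, was at 24.2 ± 2.83 CPM in SAS against 77.5 ± 13.6 in ANT (−1.68, SE 0.15, adjusted p 1.15e-05). Panx1, the pannexin channel, was slightly higher in SAS (0.43, adjusted p 0.0151), a call lost without ANT replicates 1 and 3 (0.0702). Ano6, a scramblase that acts downstream of P2X7, was lower in SAS (−0.40, adjusted p 0.00859).

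Levels of different genes can be compared after division by exon length. In SAS the order was Izumo1r (73.1 ± 18.9 CPM per kb), Cd200 (43.6 ± 3.13), Adora2a (30.5 ± 3.38), P2rx7 (8.24 ± 2.20), Ada (4.69 ± 0.336), Nt5e (2.43 ± 1.15), Nrp1 (1.95 ± 1.15) and Entpd1 (0.171 ± 0.145). The means of Nt5e and Nrp1 lay closer together than their SDs. These SDs ignore that both genes were measured in the same libraries, and the order of the 2 within each library was not tested. In ANT, Adora2a (8.21 ± 1.37 CPM per kb), Ada (6.68 ± 1.72) and Izumo1r (6.04 ± 1.83) led and overlapped. Cd200 (3.87 ± 0.920) and P2rx7 (2.997 ± 0.507) followed and overlapped, then Nrp1 (0.440 ± 0.161), and Nt5e (0.0626 ± 0.0174) and Entpd1 (0.0417 ± 0.0203) closed the order.

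A ratio of 2 genes within a library does not depend on scaling between libraries. The ratio of Nt5e to Ada per kb was 0.00632, 0.00648, 0.00984 and 0.0192 in ANT replicates 1, 3, 4 and 5 and 0.659, 0.747, 0.442 and 0.213 in SAS replicates 1, 2, 3 and 6. Per kb, Ada was thus above Nt5e in every library, by a much smaller margin in SAS. This order depends on the division by exon length. In counts not divided by it, the ratio was 0.0271 to 0.0827 in ANT. It was 2.83, 3.21, 1.90 and 0.914 in SAS replicates 1, 2, 3 and 6. The ratio of Nt5e to Entpd1 ran from 0.865 to 4.76 in ANT and from 9.32 to 26.1 in SAS, with few Entpd1 counts behind each. The ratio of Izumo1r to Nt5e ran from 59.9 to 142 in ANT and from 17.6 to 79.6 in SAS. Its highest SAS value, in replicate 6, lay within the ANT range, so this pair of anergy markers did not keep a fixed proportion. The ratio of Adora2a to P2rx7 was 2.32 to 3.16 in ANT, and 3.21, 6.17, 3.32 and 3.18 in SAS replicates 1, 2, 3 and 6. In SAS replicate 2 Adora2a outweighed P2rx7 most.

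**Figure D4:**
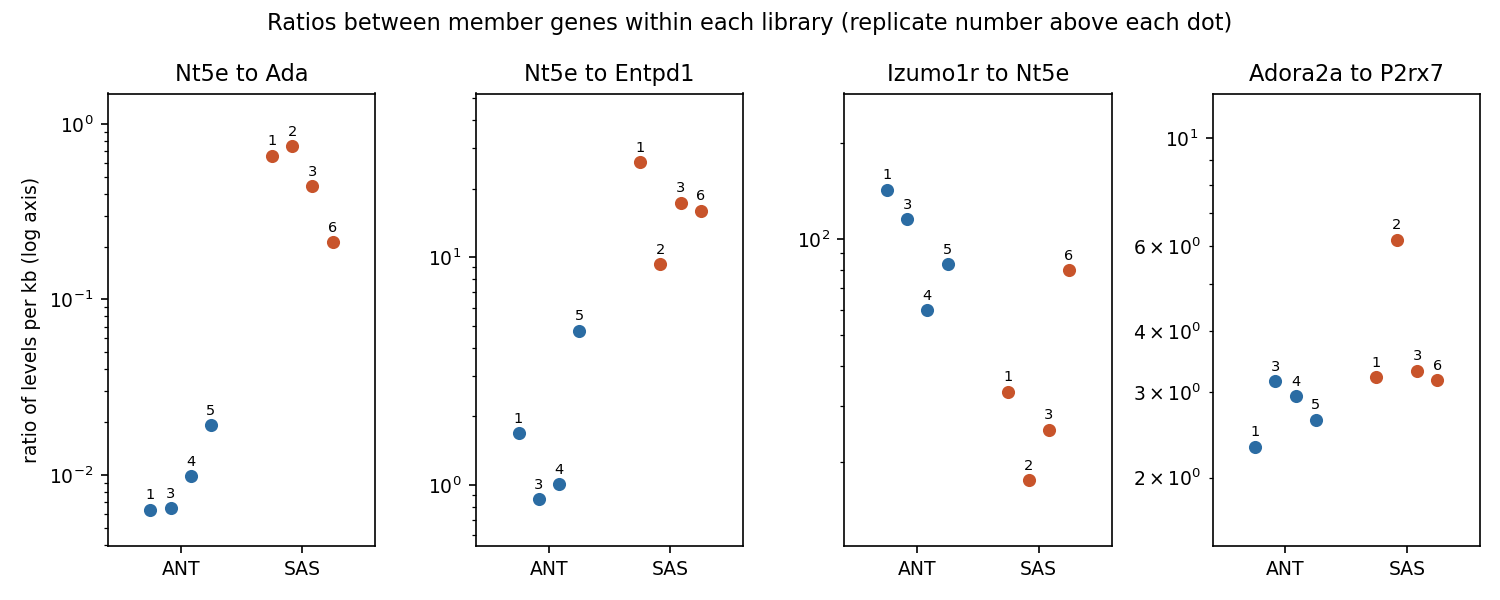
Ratios between pairs of the 8 genes within each library, per kilobase of exon, on log axes; each dot is a library with its replicate number. Nt5e to Ada separates the clones (at most 0.0192 in ANT, at least 0.213 in SAS), and SAS replicate 6 lies within the ANT range for Izumo1r to Nt5e.

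The genes whose profile lay nearest to each member were found by the mean absolute difference between log2 CPM profiles over the 8 libraries, each centred on its mean, among 10861 other protein-coding genes. Nearest to Adora2a were Elk3 (0.0868) and Nfkbid (0.0903), with log2 fold changes of 1.77 and 1.86. P2rx7 lay nearest to Map3k8 (0.128) and Lap3 (0.156), Izumo1r to Zfp608 (0.240) and Prelid2 (0.264), and Cd200 to Fignl1 (0.162) and Kcnn1 (0.197). Kcnn1 had no count in ANT and stood at 0.592 ± 0.0506 CPM in SAS. Its fitted log2 fold change was 7.13, against 3.49 for Cd200. Nt5e lay nearest to Gucy1a1 (0.225), a guanylate cyclase subunit at 5.55 ± 2.64 CPM in SAS, and Adamts20 (0.284). Nrp1 lay nearest to Tiam1 (0.247), at 20.8 ± 11.2 CPM in SAS against 4.38 ± 0.542 in ANT, and Ckap2l (0.255). Nearest to Ada were Ypel5 (0.0692) and Dtd2 (0.0727), which like Ada were not called.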

How the data were processed

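The submitters' processing notes name STAR, featureCounts and the mm10 build, and the authors deposited raw counts for 39056 genes in 8 libraries (27600959 to 31810799 counts each). The sources used here do not give versions, annotation release, strand setting or the treatment of multi-mapped reads. Libraries were strand-specific TruSeq mRNA libraries, per the labels. IDs were matched to GENCODE M21 symbols without the version suffix (38872 of 39056). Exon length is the union of a gene's exons there. Of the 8 genes, Nrp1 and P2rx7 share exon bases with a microRNA model on the same strand and no other gene model overlaps an exon of a member.

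Genes were tested with edgeR 4.0.16 (R 4.3.3): default low-count filter (12619 genes), TMM, robust quasi-likelihood test of SAS against ANT without covariates, Benjamini-Hochberg adjustment over all tested genes. The SE was taken as the size of the log2 fold change over the root of its F statistic. Samples were grouped by title. DESeq2 1.42.0, limma-voom 3.58.1, other scalings and filters, a stricter threshold, a thresholded test, libraries left out and a replicate block were the alternatives. The likeness measure used log2 CPM with a prior count of 2.

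The 8 genes and the lists were chosen with earlier results of these data known, so a count over them is a description. Genes of a list were named when called with at least 5 CPM in the higher clone, at most 4 per direction. The rule also named Foxp3, Cd4, Cd3e and the 2 genes of nearest profile to each member. Named outside that rule, after their values were seen, were Prkar1b, Prkacb, Alpl, Nrp2, Slc46a1, Dpp4, Ahcy, Adal, Slc28a2, P2rx4, P2ry14, Art2b, Cd200r3, Adora1, single cell type markers (such as Csf1r, Cd68, Ighm, Ighd and Cd8a) and genes with almost no counts. Counts of 10 or fewer limit what can be said of Entpd1 in ANT. Promoter sequences are from RefSeq's table (GRCm38.p6). The members' protein sequences were not used here.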

Additional observations from a re-analysis of the deposited data

Results flagged for a closer look

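The screen covered 158 groups of 4 libraries. They were the members, the genes named by the rule and those named outside it from Prkar1b to Cd200r3, in each clone. Of these groups, 9 had 1 library far from the other 3, where chance gives about 1 group in 20. None of the 9 was a level of the 8 genes. Adora1 and single cell type markers such as Csf1r were not screened. SAS replicate 2 was far above the other SAS libraries for Adora1 (2.21 CPM against 0.0690 to 0.193) and Csf1r (2.17 CPM against at most 0.152). SAS replicate 2 stood apart for Prkar1b (7.50 CPM against 0.487 to 1.14), P2rx4 (33.8 CPM against 25.7 to 25.9) and Cd200r1 (28.5 CPM against 37.3 to 38.6). SAS replicate 1 stood apart for Gpr83 (25.7 CPM against 16.7 to 17.5). ANT replicate 1 was low for Cd3e (448 CPM against 530.2 to 544) and for Prkar2b (2.62 CPM against 3.27 to 3.39), ANT replicate 3 was low for Ahcy (23.9 CPM against 30.4 to 31.1), ANT replicate 4 was low for Slc46a1 (0.180 CPM against 0.404 to 0.448), and ANT replicate 5 was the only ANT library with a count for Alpl (0.0689 CPM).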

How the results depend on the processing

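The calls of Izumo1r, Nt5e, Adora2a, P2rx7 and Cd200 held in each of the 20 alternatives, with log2 fold changes of 3.40 to 3.75, 5.02 to 5.65, 1.71 to 2.09, 1.30 to 1.69 and 3.34 to 3.63. Nrp1 (1.70 to 2.52) lost its call in 1, and Ada (−0.81 to −0.17) gained one in 4, as given above, so that 1 member was called higher in ANT by DESeq2, without ANT replicates 4 and 5, and with a replicate block, and 0 to 1 when 1 library was left out. The count of called genes was 1836 against a 1.5-fold difference and 3044 at an adjusted p under 0.01, both by construction stricter. The replicate block, in which only replicates 1 and 3 occur in both clones, called 5798 genes and gave −0.75 for Ada (adjusted p 0.00137, edgeR). The labels do not say that a number marks a shared batch, and the deviations of same-numbered libraries correlated at 0.293 (replicate 1) and −0.121 (replicate 3), so the numbers were not taken to pair the samples. Differences near 0 changed sign without passing the test. With library totals only, Cd4 was at 0.0497, Cd3e at 0.0747, Slc28a2 at 0.0536 and P2rx4 at 0.0930. Cd3e was at 0.0302 without ANT replicates 4 and 5 and at 0.0122 with the block. Without ANT replicates 1 and 3, Slc28a2 was at 0.16, P2rx4 at 0.0141 and Art2b at −0.0703. P2rx4 was at 0.0149 with at least 50 counts in every library of 1 clone. With 1 library left out, values ran from −0.145 to 0.0169 for Slc28a2 and from −0.112 to 0.0302 for P2rx4. The cause was not tested. Depth limits Entpd1 most, at 26 counts in all of ANT and 113 in SAS.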
